A study of Mus musculus with 12 samples.

Results

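Brpf1 knockdown in the adult hippocampus was measured by mRNA-Seq in 6 samples of CA1 tissue, which are all the in vivo samples among 12 in the series. The CA1 tissue of C57BL/6 mice received an adeno-associated virus at 4 weeks of age and was taken at 8 weeks. In 3 samples the virus was AAV2-shBrpf1-GFP, which makes a short hairpin RNA against Brpf1 together with green fluorescent protein, and in the other 3 it was AAV2-scramble-GFP, which carries a hairpin without that target. Both groups thus underwent the same surgery and carried the same vector and reporter. The remaining 6 samples are cultured hippocampal neurons and serve here only for the test of a difference between the experiments. Members were all samples labelled as CA1, and the virus on the label gave the group.

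Some limits of the model apply to every value. The virus reaches only part of the cells, so a dissected CA1 sample mixes infected cells with uninfected neurons, glia and vessels. The study placed the viruses in the left and right CA1, and neither the side of each sample nor whether a sample holds 1 or more animals is given, so virus and side may not be separable. In bulk tissue, fewer cells of a type and less RNA per cell cannot be told apart. The p-values measure the spread between these 6 samples. With 3 against 3 samples, an exact permutation test allows no two-sided p under 0.1.

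Brpf1 is a chromatin reader whose bromodomain, PWWP domain and zinc fingers bind histones. It holds the acetyltransferases Kat6a, Kat6b and Kat7 in complexes with Ing4 or Ing5 and Meaf6, and these complexes acetylate histone H3. Loss of 1 copy of the human gene causes intellectual disability. CA1 pyramidal neurons are the main output cells of the hippocampus and are needed for spatial and long-term memory.

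The hairpin target is shown because it defines the treated group. It lies on chromosome 6 of the GRCm38 assembly, from 113318477 to 113318497 on the forward strand, within exon 7 of Brpf1, and all 21 bases are coding. All 7 protein-coding transcripts of the gene in GENCODE release M21 carry it, and no transcript of another gene matches it exactly.
shBrpf1 target: ggcttaccgctacttgaactt

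Interferon-stimulated genes made up the largest group of named genes that rose, so the stretches upstream of 5 genes that rose are also shown. Many genes that type I interferon induces carry the interferon-stimulated response element in their promoters. The stretches come from the RefSeq promoter table on GRCm38.p6, whose windows run from 250 bases before to 50 bases after the gene start. Capitals mark matches to GAAANNGAAA, a simple form of that element, searched on both strands with overlaps allowed.
Ifit1 (chr19:34640761-34640837, forward strand): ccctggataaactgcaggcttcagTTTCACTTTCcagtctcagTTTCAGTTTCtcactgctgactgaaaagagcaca
Ifit3 (chr19:34583349-34583440, forward strand): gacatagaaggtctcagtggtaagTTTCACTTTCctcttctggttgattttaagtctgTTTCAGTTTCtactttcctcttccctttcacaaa
Isg15 (chr4:156200851-156200920, reverse strand): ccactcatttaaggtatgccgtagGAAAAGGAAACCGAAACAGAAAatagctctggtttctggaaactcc
Rsad2 (chr12:26456539-26456596, reverse strand): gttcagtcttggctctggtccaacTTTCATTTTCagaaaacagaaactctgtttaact
Cxcl10 (chr5:92349069-92349126, reverse strand): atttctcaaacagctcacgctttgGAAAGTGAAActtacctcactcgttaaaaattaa

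The match of Ifit1 nearest to the gene start ends 75 bases before it, that of Ifit3 112 bases, that of Isg15 56 bases, that of Rsad2 110 bases and that of Cxcl10 203 bases. In Isg15 the 3 matches overlap each other and form a single run. Of all 27025 genes with a window, 3.99% held at least 1 match. Of the 53 genes that rose at the study's threshold, 41 had a window and 11 of them held a match (26.8%). Of those 11, 8 belong to the interferon-stimulated list described further on, of which 12 members that rose had a window. Ifi44, Oasl1, Oasl2 and Samd9l were the members that rose and held no match. Of the 23 members with a window that did not pass, 10 held a match. Of the genes that fell, 12 had a window and 0 held a match, too few windows to set against the share of 3.99%. A match describes the letters of the window and is not a measured binding site.

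The targeted gene was examined first. Brpf1 (gene ID 78783) was at 28.4, 37.8 and 28.2 CPM (counts scaled to the sample's total) in shBrpf1 replicates 1, 2 and 3, against 39.7, 47.1 and 35.8 CPM in scramble replicates 1, 2 and 3. The highest shBrpf1 sample lay above the lowest scramble sample, so the groups overlapped. The means were 31.5 ± 5.52 CPM in shBrpf1 tissue and 40.8 ± 5.74 CPM in scramble tissue (SD, n = 3 each), and the geometric mean in shBrpf1 tissue was 76.8% of that in scramble tissue. The log2 fold change from edgeR was -0.38 ± 0.18 (SE), with an unadjusted p of 0.0719 and an adjusted p of 0.934. An exact two-sided permutation test on log2 CPM gave p = 0.2. Leaving out shBrpf1 replicate 2 gave -0.52 (unadjusted p = 0.0263), and leaving out scramble replicate 3 gave -0.48 (unadjusted p = 0.0477). The 4 other fits that leave out a sample gave -0.39 to -0.26, with unadjusted p of 0.0749 to 0.222. A fit blocked by replicate number gave -0.38 (unadjusted p = 0.038). The study speaks of its CA1 samples as pairs, and whether the replicate numbers mark those pairs is not given in the sources used here. With each sample's trend with gene length removed, an alternative chosen after seeing the data, the value was -0.49 (unadjusted p = 0.00851).

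No partner of Brpf1 in its complexes passed the test. The list of 12 genes holds Brpf1 itself, its partners, the paralogs Brd1 and Brpf3, and the related scaffolds Jade1, Jade2 and Jade3. All 12 were measured, 9 had a log2 fold change above 0, and the median was 0.17, against 0.01 over all tested genes. Kat6a, an acetyltransferase of the complex, was at 83.0, 91.5 and 54.8 CPM in shBrpf1 tissue and 35.6, 78.0 and 57.3 CPM in scramble tissue. Kat7 was at 86.0, 72.5 and 81.6 CPM in shBrpf1 tissue, against 82.3, 82.0 and 80.6 CPM in scramble tissue, with a log2 fold change of -0.03. The paralog Brd1 was at 0.10 and Brpf3 at 0.11 on the log2 scale. Jade2, a scaffold of the related Kat7 complexes, had the lowest unadjusted p after Brpf1 and was the only member whose groups did not overlap (background 2.55% higher), with 80.9, 73.8 and 66.6 CPM in shBrpf1 tissue and 60.6, 65.3 and 52.4 CPM in scramble tissue (log2 fold change 0.31, unadjusted p = 0.075).

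**Figure D1:**
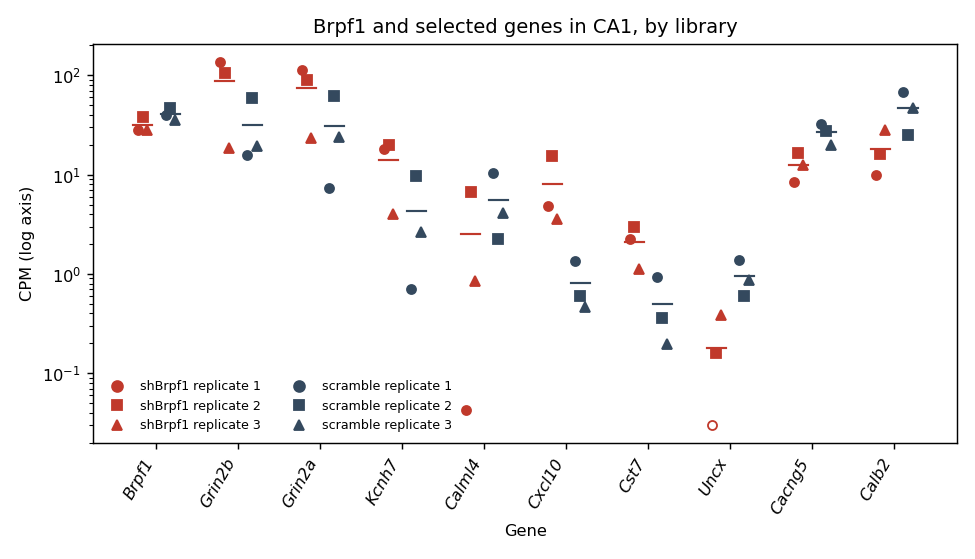
CPM on a log axis of Brpf1, 4 genes of the study's RT-qPCR primer list that did not pass the test (Grin2b, Grin2a, Kcnh7 and Calml4), 3 that did (Cxcl10, Cst7 and Uncx), and Cacng5 and Calb2, in each CA1 sample. Points are single samples (circle, square and triangle for replicates 1, 2 and 3), short lines are means of 3, and the open circle is a sample at 0. Cxcl10 and Cst7 are higher in every shBrpf1 sample than in any scramble sample and Cacng5 lower, while the groups overlap for Brpf1 and the 4 genes beside it.

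The 6 samples held 22817655 to 26073578 counts each, and 16022 genes had at least 10 counts in at least 3 samples and were tested. The study's threshold asks for a log2 fold change beyond 1 in either direction together with an unadjusted p below 0.05. By it, 53 genes rose in shBrpf1 tissue (0.331% of tested genes) and 22 fell (0.137%). Of these, 14 rises reached 10 counts in no scramble sample and 4 falls in no shBrpf1 sample, so they were tested only through the group where they are high. None passed an adjusted p of 0.05 in edgeR (0%), where the lowest adjusted p was 0.934. DESeq2 gave 3 such genes, Mx1 and Cxcl10 among them, and limma-voom 0. At an unadjusted p under 0.05 alone, 110 genes were higher (0.687%) and 74 lower (0.462%), which is fewer in sum than a threshold of 0.05 gives when no gene changes. Of all tested genes 50.8% had a log2 fold change above 0, 2.55% were higher in shBrpf1 tissue without overlap between the groups, and 2.83% were lower without overlap.

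The count of changed genes depended on single samples. Without shBrpf1 replicate 2, 20 genes rose and 202 fell, and without shBrpf1 replicate 3, 137 rose and 38 fell. Without scramble replicate 2, 238 rose and 47 fell. With shBrpf1 replicate 1 left out, 33 rose and 11 fell. With scramble replicate 1 left out, 41 rose and 11 fell, and with scramble replicate 3 left out, 42 rose and 39 fell. Of the 75 changed genes, 56 had groups that did not overlap (40 higher and 16 lower). Only 6 passed the threshold in each of the 6 fits that leave out a sample, among them Cxcl10, Ifit3b and Cst7, which rose, and Hrob and Pld6, which fell. Of the other 69, 67 were tested and not called in at least 1 of them. The remaining 2, Mx1 and Oas1g, kept their call in the 3 fits that tested them.

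**Figure D2:**
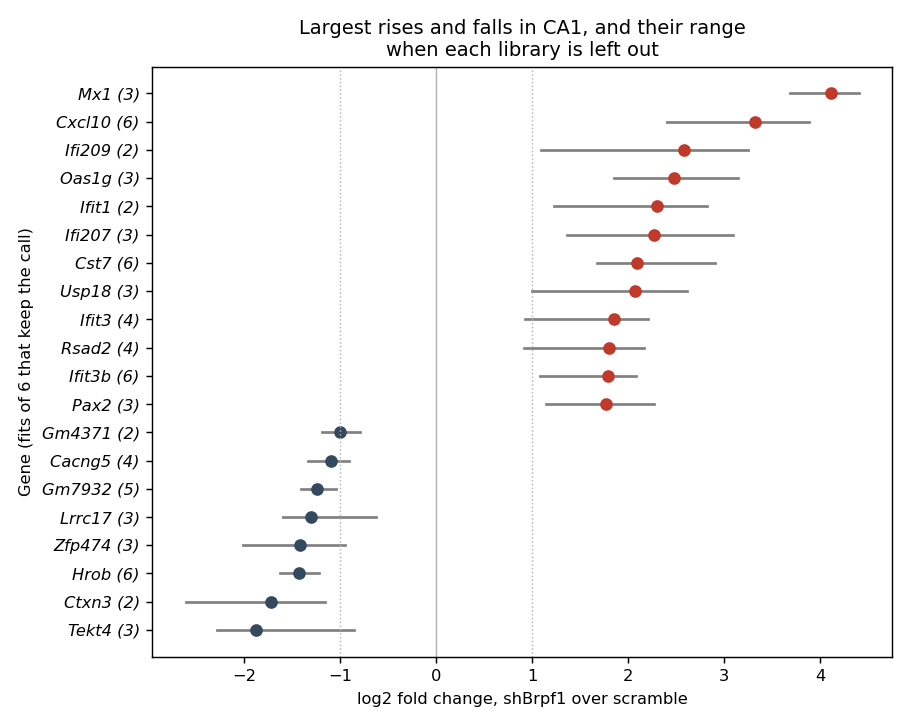
Log2 fold change (shBrpf1 over scramble, edgeR) of the 12 largest rises and 8 of the falls that the naming rule takes, as points, with the range over the 6 fits that leave out 1 sample each as grey lines. The number after each gene counts the fits, of 6, in which it passed the study's threshold, and the dotted lines mark -1 and 1. Mx1 and Oas1g were tested in 3 of the fits only. No gene shown changes direction, and Cxcl10, Cst7, Ifit3b and Hrob keep their call in all 6.

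Antiviral genes that interferon induces were the group with the most members that rose. Of 49 listed, 48 were tested, 45 had a log2 fold change above 0, 15 rose and 0 fell (background 0.331% higher), and 9 were higher without overlap (background 2.55%). Of the 15, Mx1 and Oas1g reached 10 counts in the shBrpf1 samples only. The median of the 48 was 1.11, against 0.01 over all tested genes. These genes were chosen with earlier results of these data known. Their summed level was 456.4, 1245 and 339.1 CPM in shBrpf1 replicates 1, 2 and 3, against 475.0, 412.2 and 235.1 CPM in scramble replicates 1, 2 and 3. One shBrpf1 sample was thus far above the others, and the remaining 2 lay within the range of the scramble samples.

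Mx1, a gene that interferon induces, had the highest log2 fold change of the genes that rose. It reached 10 counts in the shBrpf1 samples only and so was tested only through the group where it is high. It was at 1.58, 6.55 and 1.27 CPM in shBrpf1 tissue, against 0.0445, 0.240 and 0.235 CPM in scramble tissue (log2 fold change 4.12 ± 0.84, SE, unadjusted p = 0.00112). Every shBrpf1 sample was above every scramble sample, on counts of 33 to 164 in shBrpf1 tissue and 1 to 6 in scramble tissue. Whenever a shBrpf1 sample was left out it lay under the count filter and was not tested. In the 3 fits that leave out a scramble sample it kept its call, at log2 fold changes of 3.69 to 4.40.

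The Ifit proteins bind viral RNA and block its translation. Ifit3b was at 15.4, 41.8 and 12.9 CPM in shBrpf1 tissue, against 7.03, 8.05 and 5.12 CPM in scramble tissue (log2 fold change 1.79 ± 0.45, unadjusted p = 0.00361). Ifit3 was at 27.2, 89.0 and 20.4 CPM in shBrpf1 tissue and 13.7, 15.01 and 9.03 CPM in scramble tissue (1.86, unadjusted p = 0.0117). Both had no overlap, but they are near-identical neighbours, so reads may be shared between them. Ifit1 was at 11.9, 41.4 and 7.06 CPM in shBrpf1 tissue, against 4.63, 6.53 and 1.09 CPM in scramble tissue (2.30, unadjusted p = 0.0262). Without shBrpf1 replicate 2, the log2 fold changes were 1.08 for Ifit3b, 0.93 for Ifit3 and 1.23 for Ifit1, and only that of Ifit3b passed.

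Sensors and effectors of the same response rose with them. Ddx58, a cytosolic sensor of viral RNA, was at 10.4, 21.9 and 7.18 CPM in shBrpf1 tissue, against 5.79, 6.89 and 5.35 CPM in scramble tissue (log2 fold change 1.13, unadjusted p = 0.0192). Its relative Ifih1 was at 8.60, 18.2 and 4.53 CPM in shBrpf1 tissue and 4.76, 5.88 and 2.42 CPM in scramble tissue (1.26, unadjusted p = 0.0404), with overlap. Rsad2 (viperin), which blocks viral RNA synthesis, was at 4.28, 12.6 and 2.80 CPM in shBrpf1 tissue and 2.18, 2.68 and 0.782 CPM in scramble tissue (1.80, unadjusted p = 0.0218). Every shBrpf1 sample exceeded every scramble sample for Ddx58 and Rsad2.

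Isg15, a ubiquitin-like protein that is attached to other proteins, was at 8.68, 24.8 and 4.22 CPM in shBrpf1 tissue, against 4.67, 4.68 and 1.80 CPM in scramble tissue (log2 fold change 1.76, unadjusted p = 0.0261). Usp18, which removes Isg15 and dampens interferon signalling, was at 3.08, 12.3 and 2.65 CPM in shBrpf1 tissue and 2.36, 1.68 and 0.274 CPM in scramble tissue (2.07, unadjusted p = 0.033). Oas1g, Oas2, Oasl1 and Oasl2, of the family of oligoadenylate synthetases, rose by 2.48, 1.92, 1.69 and 2.18 on the log2 scale. Oasl2 was the most abundant of the 4, at 27.3, 90.0 and 10.6 CPM in shBrpf1 tissue, against 10.5, 15.7 and 2.19 CPM in scramble tissue. Samd9l and Ifi44 rose by 1.27 and 2.27, both with overlap between the groups.

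Irf7 and Irf1, transcription factors of the interferon response, did not pass the test. Irf7 was at 8.47, 39.5 and 7.72 CPM in shBrpf1 tissue, against 10.9, 9.01 and 1.21 CPM in scramble tissue (log2 fold change 1.40, unadjusted p = 0.164). Irf1 was at -0.08 on the log2 scale. In both genes the highest sample was shBrpf1 replicate 2.

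**Figure D3:**
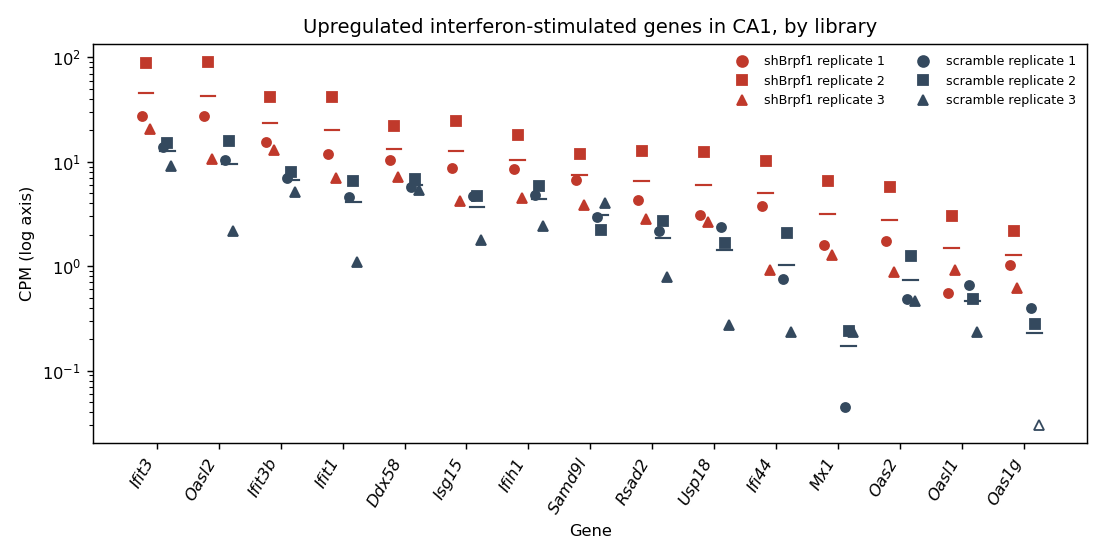
CPM on a log axis of the 15 interferon-stimulated genes that rose, in each CA1 sample, ordered by their mean in shBrpf1 tissue. Points are samples (circle, square and triangle for replicates 1, 2 and 3), short lines are means of 3, and the open triangle is Oas1g at 0 in scramble replicate 3. shBrpf1 replicate 2 is the highest sample for each of the 15 genes, and scramble replicate 3 is the lowest for 13 of them.

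The rise of the list leaned on that sample. Without shBrpf1 replicate 2, the median was 0.23, 34 of 46 tested members stayed above 0, and Ifit3b alone passed (20 of all 15772 tested genes rose). Without scramble replicate 3, the median was 0.83 and 6 members passed (42 of all 15861 rose). Without scramble replicate 1 it was 1.29 and 11 passed (41 of all 15858 rose). Without shBrpf1 replicate 3, 24 members passed (137 of all 15863 rose). By DESeq2 23 members passed (58 of all 16018 rose) and by limma-voom 8 (44 of all 16022 rose).

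Other interferon-responsive groups did not pass. Of 14 interferon-inducible GTPases, which attack the vacuoles of intracellular parasites, 0 passed and the median was 0.29. Their summed level was 93.7, 500.0 and 63.5 CPM in shBrpf1 tissue and 246.8, 206.1 and 39.0 CPM in scramble tissue. Gbp6, at 9.93, 47.5 and 4.64 CPM in shBrpf1 tissue and 14.4, 8.97 and 2.35 CPM in scramble tissue, had a log2 fold change of 1.27 (unadjusted p = 0.218), which was -0.24 without shBrpf1 replicate 2. Of 8 MHC class II genes, which present antigen to T cells, 6 were below 0, 0 passed, and the median was -0.79. H2-Eb1 was at 1.28, 7.63 and 2.03 CPM in shBrpf1 tissue, against 22.1, 2.64 and 1.56 CPM in scramble tissue, so scramble replicate 1 set its log2 fold change of -1.26, which was 0.79 without that sample.

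Ifi207 and Ifi209, of a family of interferon-inducible nuclear proteins, were also among the 12 largest rises. Ifi209 was at 0.727, 4.87 and 0.768 CPM in shBrpf1 tissue, against 0.623, 0.440 and 0 CPM in scramble tissue, and Ifi207 at 0.898, 3.03 and 0.768 CPM in shBrpf1 tissue, against 0.623, 0.280 and 0.0782 CPM in scramble tissue. Their log2 fold changes were 2.58 and 2.26. The groups did not overlap for either gene, but shBrpf1 replicate 2 again stood highest.

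Of 19 chemokines and cytokines tested, 3 rose and 0 fell (background 0.331% higher), while the list's median was 0.08. All 3 were without overlap between the groups, as were 40 of all 53 genes that rose. Of the 3, Cxcl13 and Ccl3 reached 10 counts in the shBrpf1 samples only, so that Cxcl10 was the single call whenever a shBrpf1 sample was left out or at least 50 counts were asked for. Cxcl10, which draws T cells and is itself induced by interferon, was at 4.88, 15.5 and 3.57 CPM in shBrpf1 tissue, against 1.34, 0.600 and 0.469 CPM in scramble tissue (log2 fold change 3.32 ± 0.66, unadjusted p = 0.000964). Its means were 7.98 ± 6.54 CPM in shBrpf1 tissue and 0.802 ± 0.467 CPM in scramble tissue (SD, n = 3 each). It kept its call whichever sample was left out, with log2 fold changes of 2.40 to 3.88. Cxcl13, which draws B cells, was at 0.642, 1.52 and 0.614 CPM in shBrpf1 tissue and 0.356, 0 and 0.0782 CPM in scramble tissue (2.68, unadjusted p = 0.019). Ccl3, a chemokine of activated microglia and macrophages, was at 0.599, 0.479 and 0.384 CPM in shBrpf1 tissue and 0.0890, 0.200 and 0.195 CPM in scramble tissue (1.55, unadjusted p = 0.0223).

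Few genes of glial activation moved. Of 21 activated microglia genes tested, Cst7 and Lilrb4a rose (background 0.331%), and the median was -0.07. Cst7, an inhibitor of lysosomal proteases that activated microglia express, was at 2.22, 2.99 and 1.11 CPM in shBrpf1 tissue, against 0.935, 0.360 and 0.195 CPM in scramble tissue (log2 fold change 2.09 ± 0.63, unadjusted p = 0.0103). Lilrb4a, an inhibitory receptor of myeloid cells, was at 0.599, 1.56 and 0.614 CPM in shBrpf1 tissue and 0.445, 0.320 and 0.235 CPM in scramble tissue (1.46, unadjusted p = 0.0312). Both were higher in every shBrpf1 sample than in every scramble sample, as were 40 of all 53 genes that rose. Of 14 homeostatic microglia genes 0 passed, with a median of 0.03. Cx3cr1, the fractalkine receptor of microglia, was at 65.6, 57.6 and 46.7 CPM in shBrpf1 tissue and 49.1, 48.4 and 40.4 CPM in scramble tissue.

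Of 18 reactive astrocyte genes tested, Steap4 and Cxcl10 rose (background 0.331%), and the median was 0.19. Cxcl10 is the gene already counted among the chemokines. Gfap, the filament protein of astrocytes, was at 682, 725 and 708 CPM in shBrpf1 tissue, against 768, 505 and 573 CPM in scramble tissue (log2 fold change 0.20, unadjusted p = 0.327). Steap4, a metalloreductase, was at 0.813, 2.95 and 0.537 CPM in shBrpf1 tissue and 0.312, 0.360 and 0.547 CPM in scramble tissue (1.80). Of 17 complement genes, C4b, which tags surfaces for clearance, was the single one with an unadjusted p under 0.05. C4b was at 100.1, 212 and 109 CPM in shBrpf1 tissue, against 98.3, 71.9 and 60.9 CPM in scramble tissue (0.86, unadjusted p = 0.0242), without overlap and below the fold threshold.

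Immediate early genes, which neuronal activity switches on within minutes, had log2 fold changes above 0 in 23 of 24 tested members (background 50.8%), with a median of 0.32. Nr4a3, a nuclear receptor, was the only one to pass the study's threshold, at 62.4, 26.5 and 27.6 CPM in shBrpf1 tissue, against 7.61, 20.7 and 24.7 CPM in scramble tissue (log2 fold change 1.13 ± 0.48, unadjusted p = 0.0461). Scramble replicate 1 stood well below the others. Nr4a3 did not pass without shBrpf1 replicate 1, scramble replicate 1 or scramble replicate 2, where its lowest value was 0.60. Egr3, a zinc finger factor, was at 80.8, 52.5 and 56.2 CPM in shBrpf1 tissue and 30.7, 48.8 and 42.3 CPM in scramble tissue (0.64, unadjusted p = 0.0243), and Fosl2, a partner of Jun, was at 46.8, 37.7 and 32.0 CPM in shBrpf1 tissue and 23.5, 33.4 and 22.5 CPM in scramble tissue (0.55, unadjusted p = 0.0317). The classical members split by sample rather than by group. Fos was at 38.9, 4.63 and 33.6 CPM in shBrpf1 tissue and 28.1, 3.84 and 22.9 CPM in scramble tissue, and Arc at 376, 92.8 and 278 CPM in shBrpf1 tissue and 425, 102 and 170.1 CPM in scramble tissue, low in replicate 2 of both groups. Without shBrpf1 replicate 1, 14 of 24 members were above 0 and the median was 0.04, and without scramble replicate 2 the same count stood beside a median of 0.03.

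Genes of synaptic transmission mostly stayed within the spread of the samples. Of 18 ionotropic glutamate receptor genes, 58 potassium channel genes and 18 GABA and glycine receptor genes, 0 passed in each list, with medians of 0.17, 0.14 and 0.26. These counts depended on single samples. Without scramble replicate 2, 8 potassium channel genes rose, where 238 of all 15855 tested genes did. Without shBrpf1 replicate 3, 2 potassium channel genes, 2 GABA and glycine receptor genes and 1 glutamate receptor gene rose. In that fit 137 of all 15863 tested genes rose. Without shBrpf1 replicate 2, 1 potassium channel gene fell, where 202 of all 15772 tested genes did. The median of the glutamate receptor genes was 0.02 without scramble replicate 1. Of 15 auxiliary proteins of AMPA receptors, Cacng5 fell (background 0.137%) and the median was 0.09. Gabrg3, a subunit of GABA receptors, was at 4.24, 5.23 and 1.27 CPM in shBrpf1 tissue, against 0.801, 2.64 and 1.84 CPM in scramble tissue, with a log2 fold change of 1.02 (unadjusted p = 0.122).

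The study examined genes by RT-qPCR in this tissue, chosen from its changed genes in these same samples, so their direction is not independent evidence. By RT-qPCR (n = 3 mice per group) it reported Grin2a and Cxcl10 as significantly higher and Htr1d and Glra1 as significantly lower. Its primer list names no tissue, and 13 genes of that list were taken here as those for CA1. In these counts 7 were tested, of which Cxcl10 and Cst7 rose (background 0.331%) and Uncx fell (background 0.137%). Grin2b, an NMDA receptor subunit, was at 136, 106 and 18.7 CPM in shBrpf1 tissue, against 15.6, 58.8 and 19.6 CPM in scramble tissue (log2 fold change 1.47 ± 0.78, unadjusted p = 0.1). Grin2a, its partner subunit, was at 113, 89.7 and 23.3 CPM in shBrpf1 tissue and 7.30, 61.6 and 23.8 CPM in scramble tissue (1.28, unadjusted p = 0.159). Kcnh7, a potassium channel, was at 18.3, 19.7 and 3.99 CPM in shBrpf1 tissue and 0.712, 9.69 and 2.66 CPM in scramble tissue (1.68, unadjusted p = 0.111). All 3 were high in shBrpf1 replicates 1 and 2 and scramble replicate 2, and the groups overlapped.

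Calml4, a calmodulin-like protein, was at 0.0428, 6.67 and 0.844 CPM in shBrpf1 tissue, against 10.5, 2.24 and 4.10 CPM in scramble tissue (log2 fold change -1.15, unadjusted p = 0.377). It is also a member of the list of ependymal genes given further on. Uncx, a homeobox factor of the developing nervous system, was at 0, 0.160 and 0.384 CPM in shBrpf1 tissue and 1.38, 0.600 and 0.860 CPM in scramble tissue (-2.32, unadjusted p = 0.024), on 14 counts over the 3 shBrpf1 samples. The other 6 (Gpr139, Htr1d, Glra1, Syce1l, Syce1 and Brs3) lay under the count filter. Syce1, a protein of the synaptonemal complex, had 1, 0 and 0 counts in shBrpf1 tissue and 9, 2 and 16 counts in scramble tissue, and Htr1d, a serotonin receptor, had 2, 1 and 3 counts in shBrpf1 tissue and 5, 8 and 13 counts in scramble tissue. Both were lower in every shBrpf1 sample than in any scramble sample (background 2.83% of tested genes). In the fit without a filter they had unadjusted p of 0.00546 for Syce1 and 0.0317 for Htr1d. Brs3, a receptor of the bombesin family, was also lower without overlap (unadjusted p = 0.0147). It had 0 counts in each shBrpf1 sample and 3, 4 and 3 counts in scramble tissue. Glra1, a glycine receptor, had 0, 0 and 3 counts in shBrpf1 tissue and 1, 0 and 13 counts in scramble tissue. Its groups overlapped (unadjusted p = 0.195), as did those of Gpr139 (unadjusted p = 0.973) and Syce1l (unadjusted p = 0.418) in the same fit.

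Genes that the study grouped under its terms for higher and lower genes in CA1 were likewise picked from these samples. Of 23 in the first set 14 were tested and 12 rose (background 0.331%). Of 9 in the second set 2 were tested and Pld6 fell (background 0.137%). Since the sets were taken from the changed genes of these samples, these counts are not independent evidence. Ptger3, a prostaglandin receptor in the first set, was at 0.513, 0.798 and 0.921 CPM in shBrpf1 tissue, against 0.134, 0.240 and 0.469 CPM in scramble tissue (log2 fold change 1.38, unadjusted p = 0.04).

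Cacng5, an auxiliary subunit of AMPA receptors that marks CA2, was at 8.43, 16.4 and 12.5 CPM in shBrpf1 tissue, against 32.4, 27.4 and 20.1 CPM in scramble tissue (log2 fold change -1.10 ± 0.28, unadjusted p = 0.00393). The groups did not overlap. Without shBrpf1 replicate 1 or scramble replicate 1 it no longer passed, the weakest value being -0.91. Of the 15 CA2 and CA3 markers tested, 13 were below 0 with a median of -0.27, and Cacng5 alone passed (background 0.137% lower). Pcp4, a calmodulin regulator of CA2, was at 82.4, 81.8 and 174 CPM in shBrpf1 tissue and 173, 96.9 and 271 CPM in scramble tissue.

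Calb2 (calretinin), a calcium-binding protein of interneurons and of some thalamic cells, was at 9.97, 16.1 and 28.4 CPM in shBrpf1 tissue, against 67.2, 25.3 and 46.6 CPM in scramble tissue (log2 fold change -1.35 ± 0.44, unadjusted p = 0.0146). The groups overlapped, and without scramble replicate 1 the value was -0.98 and did not pass. Of 22 interneuron genes, Calb2 fell (background 0.137%), none rose past the threshold, and the median was -0.08. Vip, a neuropeptide of interneurons, was at 12.9, 10.7 and 11.0 CPM in shBrpf1 tissue and 8.46, 8.73 and 6.72 CPM in scramble tissue (0.53, unadjusted p = 0.0273), without overlap and below the fold threshold. Slc18a2, the vesicular transporter of monoamines, was at 5.31, 5.27 and 6.41 CPM in shBrpf1 tissue and 9.44, 8.13 and 8.13 CPM in scramble tissue (-0.60, unadjusted p = 0.02), also without overlap and below the fold threshold.

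Hrob, a factor of homologous recombination, and Pld6, a mitochondrial enzyme needed to make piRNAs in the germ line, fell and kept their call whichever sample was left out. Hrob was at 0.428, 0.319 and 0.537 CPM in shBrpf1 tissue, against 1.16, 0.841 and 1.49 CPM in scramble tissue (log2 fold change -1.43 ± 0.44). Pld6 was at 0.342, 0.240 and 0.461 CPM in shBrpf1 tissue, against 0.935, 0.761 and 1.06 CPM in scramble tissue (-1.38 ± 0.45). Both rest on fewer than 40 counts in any sample. Of 10 genes of meiosis and the germ line tested, Pld6 alone passed (background 0.137% lower).

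Further falls that the naming rule takes were Tekt4, Ctxn3, Zfp474, Lrrc17, Gm7932 and Gm4371, at -1.88, -1.72, -1.42, -1.30, -1.24 and -1.001 on the log2 scale. Tekt4, a tektin of ciliary axonemes, was at 0.299, 0.599 and 0.307 CPM in shBrpf1 tissue and 3.03, 0.801 and 0.664 CPM in scramble tissue, so that 1 scramble sample stood apart. Ctxn3, a cortexin, was at 0.257, 2.67 and 1.23 CPM in shBrpf1 tissue and 7.61, 3.52 and 2.70 CPM in scramble tissue. For both the groups lay next to each other without overlap.

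Of 24 developmental transcription factors tested, Pax2 rose (background 0.331%) and Uncx fell (background 0.137%), with a median of 0.06. Pax2, a paired box factor of the midbrain-hindbrain boundary, was at 2.27, 0.998 and 0.768 CPM in shBrpf1 tissue, against 0.623, 0.240 and 0.313 CPM in scramble tissue (log2 fold change 1.77 ± 0.59, unadjusted p = 0.0169). Pou4f1, a factor of the habenula, was at 1.03, 0.958 and 0.960 CPM in shBrpf1 tissue and 0.0445, 0.0400 and 0.508 CPM in scramble tissue (2.26, unadjusted p = 0.023). The groups overlapped for neither gene. Pax2 passed in 3 and Pou4f1 in 5 of the 6 fits that leave out a sample, and Pou4f1 did not pass without scramble replicate 2. Pou4f1 had 1, 1 and 13 counts in scramble tissue. It is listed with the genes of thalamus and habenula. Of 19 tested there, 13 were below 0, with a median of -0.08. Pou4f1 alone rose (background 0.331%) and Calb2 alone fell (background 0.137%).

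Levels of CA1 and thalamic markers differed between samples of the same group. Whether the dissections differed was not tested. The labels name the source as neural progenitor cells, while all 13 markers of CA1 pyramidal neurons were detected, at summed levels of 901.9, 713.1 and 835.9 CPM in shBrpf1 tissue and 829.9, 825.8 and 427.1 CPM in scramble tissue. Wfs1, which marks CA1, was at 192, 154 and 134 CPM in shBrpf1 tissue and 189, 184 and 68.7 CPM in scramble tissue, lowest in scramble replicate 3. In the same sample Tcf7l2, a factor of thalamic neurons, was at 67.2 CPM, against 27.8 CPM in shBrpf1 replicate 3 and 4.54 to 5.71 CPM in the other 4. None of the 13 CA1 markers passed, and their median was 0.27.

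Choroid plexus RNA varied most. The summed level of its 18 markers was 199.6, 5699 and 436.3 CPM in shBrpf1 tissue, against 6402, 254.2 and 1739 CPM in scramble tissue. Ttr (transthyretin), its most abundant marker, was at 2.95, 2989 and 179.7 CPM in shBrpf1 tissue and 4652, 5.40 and 1108 CPM in scramble tissue. shBrpf1 replicate 2 and scramble replicate 1 were the samples richest in it. The summed level of the antiviral genes was 1245 CPM in the first and 475.0 CPM in the second, against 235.1 to 456.4 CPM in the other samples. The median log2 deviation of the antiviral genes was 1.48 and -0.18 in these 2 samples, against -1.03 to 0.07 in the others. The median over the 18 was -0.01 and 0 passed. Of 23 ependymal and ciliary genes 0 passed with a median of -0.25. Without shBrpf1 replicate 2, 11 of 17 tested choroid plexus markers and 16 of 23 ependymal genes were among the 202 genes that fell. The part of choroid plexus RNA in the antiviral result was not tested.

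No myelin gene passed the test with all 6 samples. Of 18 mature oligodendrocyte genes 17 were below 0, with a median of -0.31. Without shBrpf1 replicate 1 the median was -0.11 and 12 of 18 were below 0. Without shBrpf1 replicate 2 it was -0.58, with 1 gene that fell and 10 at an unadjusted p under 0.05. The gene that fell was Enpp2, which is also among the choroid plexus markers. Enpp2 was at 154, 2077 and 210 CPM in shBrpf1 tissue and 1335, 205 and 508 CPM in scramble tissue. In that fit 202 of all 15772 tested genes fell, and 320 had an unadjusted p under 0.05. Without shBrpf1 replicate 3 the median was -0.17. Mbp, the main protein of compact myelin, was at 2889, 5004 and 4599 CPM in shBrpf1 tissue, against 5569, 4911 and 7286 CPM in scramble tissue (log2 fold change -0.51 ± 0.25, unadjusted p = 0.0785). Mog, a myelin surface protein, was at 56.2, 108 and 70.0 CPM in shBrpf1 tissue and 104, 103 and 116 CPM in scramble tissue (-0.47, unadjusted p = 0.0836). For both genes shBrpf1 replicate 2 lay within the scramble range and the groups overlapped.

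**Figure D4:**
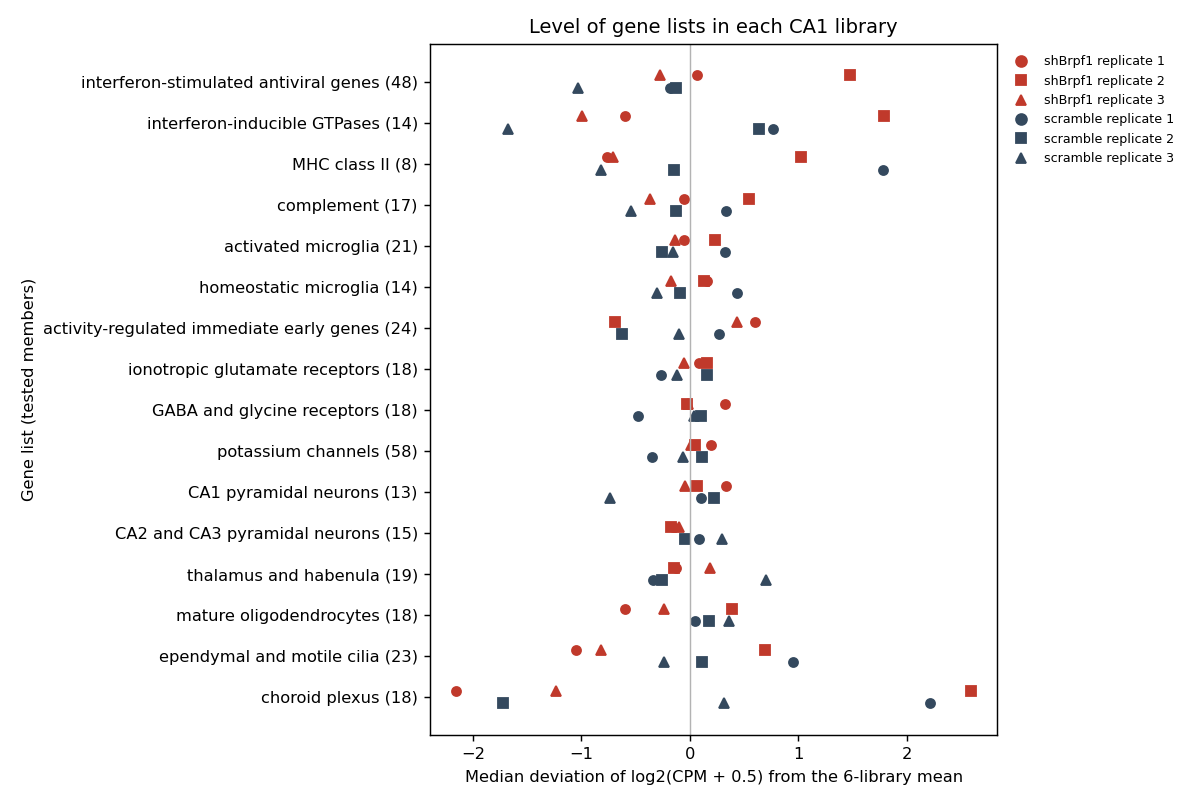
Level of 16 gene lists in each CA1 sample, as the median over tested members (their number in brackets) of log2(CPM + 0.5) minus the gene's mean over the 6 samples. Each symbol is 1 sample. The samples of a group lie far apart for choroid plexus, from -2.15 to 2.60 in shBrpf1 tissue and from -1.73 to 2.21 in scramble tissue, and shBrpf1 replicate 2 stands alone at 1.48 for antiviral genes.

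Levels also followed gene length. Among the 289 tested genes whose length in the files exceeds 10000 bases, the median deviation from the mean of the 6 samples was 0.37, 0.42 and -0.14 on the log2 scale in shBrpf1 replicates 1, 2 and 3, against -0.71, 0.24 and -0.11 in scramble replicates 1, 2 and 3. Among the 1678 genes of up to 1000 bases each sample deviated in the opposite direction, at -0.19, -0.19 and 0.07 in shBrpf1 tissue and 0.36, -0.15 and 0.14 in scramble tissue. Scramble replicate 1 also had the highest share of mitochondrial counts, 10.9%, against 6.87 to 8.29% in the other 5. The samples high in long genes were those high in Grin2b, Grin2a and Kcnh7. With the trend removed, 53 genes rose and 18 fell, of which 43 and 14 were also called without that step, and 11 antiviral genes passed. The part of the trend in the values of single genes was not tested further.

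**Figure D5:**
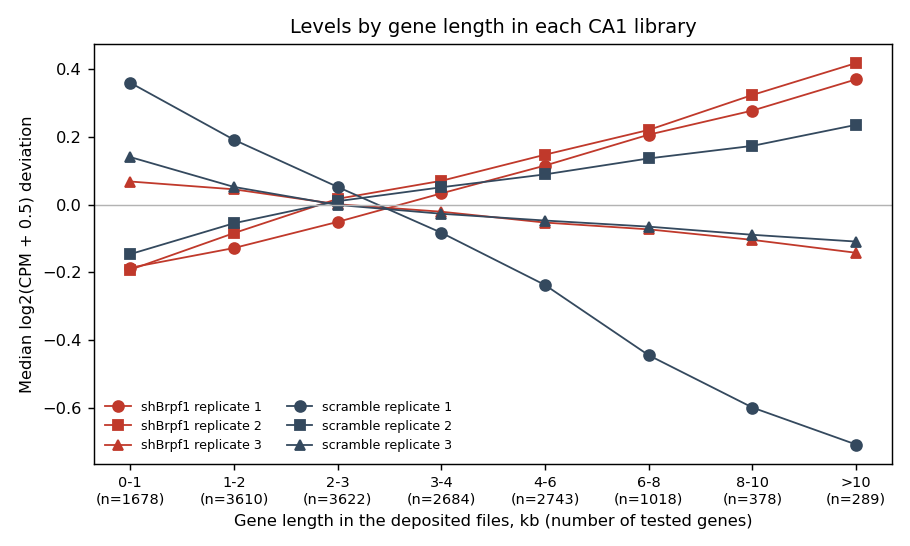
Median over tested genes of the deviation of log2(CPM + 0.5) from the gene's mean over the 6 CA1 samples, by gene length in kb. Each line is 1 sample and the number of genes stands under each bin. Scramble replicate 1 falls to -0.71 and shBrpf1 replicates 1 and 2 rise to 0.37 and 0.42 in the longest genes.

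Whether CA1 tissue responded differently from cultured neurons was tested as an interaction over all 12 samples. Of 16661 genes, 55 had an unadjusted p under 0.05 and 0 an adjusted p under 0.05 in edgeR, and DESeq2 was not run on it. Mx1 had a log2 fold change of 4.11 in CA1 tissue and -0.61 in neurons in that fit, a difference of 4.71 ± 1.12 (unadjusted p = 0.00125, adjusted p = 1). Cxcl10 had 3.29 in CA1 tissue and -0.37 in neurons (difference 3.65, unadjusted p = 0.0132), and Calb2 -1.36 in CA1 tissue and 0.64 in neurons (difference -2.01, unadjusted p = 0.0137). Brpf1 had -0.39 in CA1 tissue and -0.07 in neurons (difference -0.32 ± 0.42, unadjusted p = 0.466). No gene is therefore shown to respond differently in tissue at the adjusted threshold.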

How the data were processed

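RNA was measured by mRNA-Seq in 3 shBrpf1 and 3 scramble CA1 samples, grouped by their labels. According to the study's methods, the authors trimmed the reads, mapped them by STAR to the release-98 mouse assembly and obtained counts of annotated genes through StringTie. The submitters' processing notes name mm9. The deposited values are raw counts per NCBI gene ID, 27179 per sample, with a gene length. RefSeq (GRCm38.p6) named 25275 IDs and GENCODE M21 named 18; the 1886 others hold 1.92% of CA1 counts. All IDs of chromosomes 13 and Y are at 0 in the CA1 tables and were not analysed here.

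Genes reaching 10 counts in 3 or more samples entered edgeR 4.0.16 (TMM, robust quasi-likelihood test) in R 4.3.3, with Benjamini-Hochberg adjustment over all tested genes. CPM use TMM-scaled totals. Standard errors are the absolute log2 fold change over the square root of F. The length trend was a lowess curve (span 0.3) per sample, used as an offset. Alternatives were DESeq2 size factors, DESeq2 1.42.0, limma-voom (limma 3.58.1), no filter, at least 50 counts, a replicate block and leaving out each sample. Within groups, counts of 2 samples differed with a chi-square of 43.4 to 111 per gene, far above counting noise, and each sample was counted once. Scripts were tested on simulated data.

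Members and the 45 gene lists were chosen with earlier results of these data known. Named genes are Brpf1, the study's RT-qPCR genes, up to 12 of the largest rises and of the largest falls without overlap and with a mean of at least 1 CPM in the higher group, list members with an unadjusted p under 0.05 (otherwise the 2 lowest), and the 3 most abundant markers of marker lists; further members are named as examples, chosen after their values were seen. Some items that this rule takes are not reported here.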

Additional observations from a re-analysis of the deposited data

How the results depend on the processing

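Without a filter 85 genes rose (36 of the 53 among them) and 66 fell (20 of the 22), and with at least 50 counts 20 rose and 4 fell. DESeq2 gave 3 genes with an adjusted p under 0.05 and each other alternative 0. Leaving out 1 sample gave 20 to 238 genes that rose, 11 to 202 that fell, a Brpf1 log2 fold change of -0.521 to -0.261 and an antiviral median of 0.228 to 1.453. Brpf1 passed an unadjusted p of 0.05 with the replicate block (-0.380, unadjusted p = 0.038) and with the length trend removed (-0.494). Directions changed for Gbp6 (-0.235 to 1.865), Gbp7 (-0.021 to 1.577), Kl (-0.692 to 1.315), Prlr (-1.361 to 1.356), H2-DMa (-0.527 to 0.012) and H2-Eb1 (-2.402 to 0.788) when samples were left out, and for Prlr with the replicate block (-0.275). None of these 6 had passed. The cause was not tested. Samples of the same number correlated at -0.321, 0.139 and 0.348 in their departures from the group means, and samples of different numbers at -0.46 to 0.354. Levels also varied with choroid plexus RNA and gene length, so these correlations cannot settle whether the numbers mark pairs. The study speaks of pairs of CA1 samples. The main fit did not use the numbers, and the block gave 60 genes that rose and 26 that fell. Genes near or under 10 counts per sample, such as Syce1 and Htr1d, are limited by depth.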
